A study of Mus musculus with 30 samples.

Results

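The 10 genes described here carry bile acid synthesis and transport in the liver. They are Cyp7a1, Cyp8b1, Cyp27a1, Abcb11, Abcb4, Abcc2, Slc10a1, Slco1b2, Baat and Slc27a5. They were chosen by gene symbol and are 10 of the 36103 genes in the deposited count table. RNA from the liver, gastrocnemius, diaphragm and heart of Mtm1-/y mice and wild-type (WT) littermates, on a pure 129Pas background, was sequenced at 5 weeks of age. Mtm1-/y mice are a model of X-linked myotubular myopathy in which Mtm1, the gene of the phosphoinositide phosphatase myotubularin, is disrupted in the whole body of males. The liver gave 3 WT and 4 Mtm1-/y libraries, the gastrocnemius and the heart 4 and 4 each, and the diaphragm 4 WT and 3 Mtm1-/y, so that 7 of the 30 libraries are liver. The study's methods give these as numbers of mice, the labels call the mutant group Mtm1KO, and bulk RNA of a whole tissue cannot tell fewer cells of a type from less RNA per cell.

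Bile acids are made from cholesterol in hepatocytes. The classic route starts with the cholesterol 7-alpha-hydroxylase Cyp7a1, Cyp8b1 adds the 12-alpha-hydroxyl group that makes cholic acid, and the mitochondrial Cyp27a1 oxidises the side chain and opens the alternative route. Slc27a5 activates bile acids to their CoA esters and Baat joins them to taurine or glycine. Slc10a1 (NTCP) and Slco1b2 take bile acids up from sinusoidal blood, Abcb11 (the bile salt export pump, BSEP) and Abcc2 (MRP2) export bile salts and conjugates into the canaliculus, and Abcb4 (MDR3) moves phosphatidylcholine into bile. Loss of this export causes cholestasis, and liver disease in patients with MTM1 mutations is the reason why the mouse liver was examined.

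In the liver, none of the 10 genes differed between the genotypes by the study's thresholds, an adjusted p under 0.05 together with an absolute log2 fold change over 1. The test was edgeR's quasi-likelihood test over 14305 genes, which called 0 genes (0% of those tested) and gave 606 genes an unadjusted p under 0.05. DESeq2 called 12 genes in the same libraries and again 0 of the 10. The data do bound the size of a change: the 95% interval of the fold change lay within a 2-fold change either way for 9 of the 10 genes, the exception being Cyp7a1. Values below are CPM, the reads of a gene relative to all reads counted in its library, scaled between libraries by TMM, listed in the order of the replicate numbers in the labels, and folds are Mtm1-/y over WT.

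The labels were checked first by Mtm1 itself. Mtm1 was at 12.5 to 19.0 CPM in the WT livers and at 3.37 to 6.39 CPM in the Mtm1-/y livers, without overlap. Its log2 fold change was -1.60 ± 0.23 (SE, n = 3 and 4), with an adjusted p of 0.365 by edgeR and 1.46e-06 by DESeq2. The disrupted gene itself thus did not pass edgeR's test in the liver. In the other tissues it was at 18.7 to 31.7 CPM in WT and 3.98 to 5.33 CPM in Mtm1-/y libraries. All 15 hepatocyte markers were read in every liver library, with a sum of 163283 to 197976 plain CPM (without the TMM scaling). Liver libraries held 26965151 to 41147747 counted reads, and all 30 libraries 24873817 to 44289343.

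One liver library stood apart from the rest, Mtm1-/y liver 2. On the first principal component of the liver libraries, which held 35.0% of the variance, it lay at 43.5 while the other 6 lay between -14.4 and -1.40. The clock output gene Dbp was at 108 CPM in it and at 0.81 to 11.3 CPM in the others. Its 8 Kupffer cell markers summed to 48.4 plain CPM, against 170.7 to 252.1 plain CPM in the other 6, and its 12 striated muscle markers to 91.7 against 10.5 to 31.2 plain CPM. A number of liver results below are therefore also given without this library. Leaving it out did not bring any of the 10 genes past the thresholds.

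**Figure D1:**
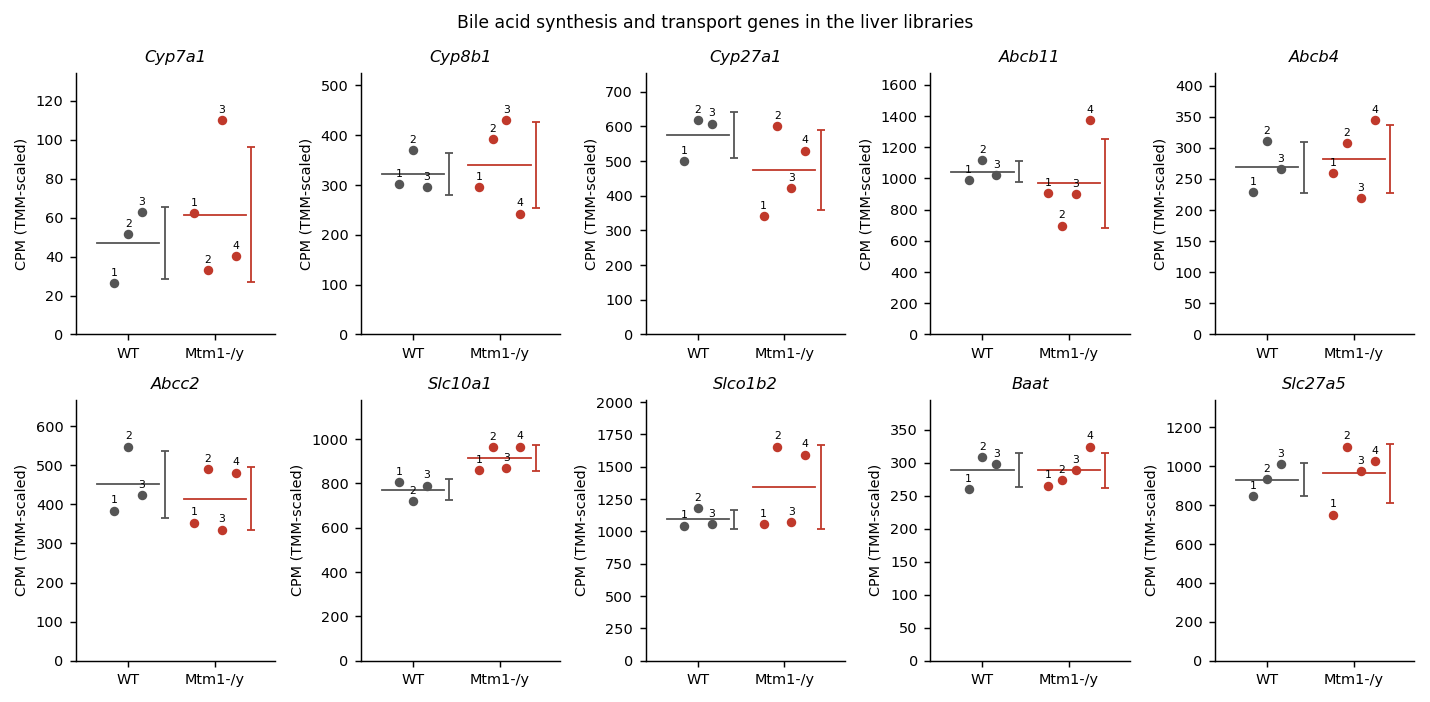
Expression of the 10 genes in the 7 liver libraries, 1 panel per gene, with WT and Mtm1-/y on the horizontal axis and TMM-scaled CPM from 0 on the vertical axis. Numbers are replicate numbers, horizontal lines are group means and bars 1 SD (n = 3 and 4). Only for Slc10a1 do the groups not overlap, and Cyp7a1 spreads most, from 26.3 to 110.0 CPM.

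Of the synthesis enzymes, Cyp7a1 catalyses the rate-limiting step and is known for a strong daily rhythm. It was at 26.3, 51.6 and 62.7 CPM in the WT livers and at 62.4, 32.95, 110.0 and 40.4 CPM in the Mtm1-/y livers. The highest library held 4.18 times the CPM of the lowest, more than for any other of the 10 genes, and the groups overlapped. The fold change was 1.31, with a 95% interval of 0.66 to 2.61 (edgeR adjusted p = 0.969). Without Mtm1-/y liver 2 the interval was 0.79 to 2.90, so both intervals include a 2-fold rise. Its biological coefficient of variation, the spread between libraries beyond counting error, was 0.39 and higher than that of 90.5% of the 14305 genes tested.

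Cyp8b1 was at 301, 370 and 296 CPM in WT and at 296, 392.4, 430 and 242 CPM in Mtm1-/y livers. The Mtm1-/y libraries thus held both the highest and the lowest value. Its fold change had an interval of 0.77 to 1.45. Cyp27a1 was at 499, 617 and 608 CPM in WT and at 341, 601, 422 and 530 CPM in Mtm1-/y livers, with an interval of 0.61 to 1.12. It was the gene whose interval moved off 0 when Mtm1-/y liver 2 was left out, to a log2 fold change of -0.42 with an interval of -0.82 to -0.01, and an adjusted p of 0.939.

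The enzymes that activate and conjugate bile acids were steadier. Baat was at 260, 308 and 298 CPM in WT and at 266, 275, 290 and 325 CPM in Mtm1-/y livers. Those values lie over one another, and the interval of its fold change, 0.84 to 1.19, was the narrowest of the 5 enzymes. Slc27a5 was at 845, 933 and 1013 CPM in WT and at 751, 1101, 975 and 1028 CPM in Mtm1-/y livers, with an interval of 0.82 to 1.31. The coefficient of variation was 0.14 for Baat and 0.16 for Slc27a5, lower than that of most genes tested (percentiles 20.5 and 38.2).

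Of the uptake transporters, Slc10a1 was the only one of the 10 genes whose groups did not overlap. It was at 807, 719 and 791 CPM in WT and at 860, 964, 868 and 966 CPM in Mtm1-/y livers. All Mtm1-/y libraries lay above all WT libraries for 2.62% of the genes tested, so 1 such gene in 10 stands against that background. The log2 fold change was 0.24 ± 0.10 (SE), a fold of 1.18, with a 95% interval of 0.01 to 0.48 on the log2 scale (edgeR adjusted p = 0.969, and 0.0448 before adjustment). Without Mtm1-/y liver 2 the groups still did not overlap, and the interval was -0.04 to 0.47. Slco1b2 was at 1046, 1181 and 1056 CPM in WT and at 1059, 1656, 1073 and 1595 CPM in Mtm1-/y livers. Mtm1-/y livers 2 and 4 stood above all others, livers 1 and 3 within the WT range, and the interval was 0.92 to 1.65.

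Of the canalicular transporters, Abcb11 was at 991, 1118 and 1022 CPM in WT and at 907, 698, 899 and 1373 CPM in Mtm1-/y livers. It was the lowest in Mtm1-/y liver 2 and the highest in Mtm1-/y liver 4, on both sides of the WT range. The fold change had an interval of 0.67 to 1.29, and 0.76 to 1.35 without Mtm1-/y liver 2. Neither interval holds a 2-fold loss of Abcb11 transcript.

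Abcb4 was at 229, 310 and 266 CPM in WT and at 259, 307, 220 and 344 CPM in Mtm1-/y livers, with an interval of 0.80 to 1.38. Abcc2 was at 384, 547 and 423 CPM in WT and at 353, 489, 336 and 481 CPM in Mtm1-/y livers, with an interval of 0.69 to 1.23. Both overlapped between the genotypes, with Mtm1-/y livers 1 and 3 below every WT library for Abcc2. For neither did leaving out Mtm1-/y liver 2 move the bounds past a 2-fold change.

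**Figure D2:**
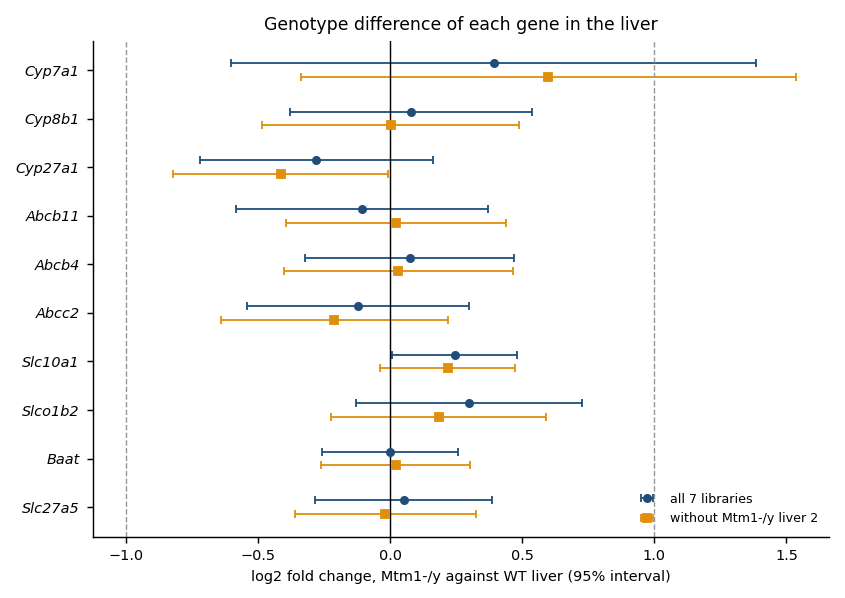
Log2 fold change of each gene, Mtm1-/y against WT liver, with its 95% interval from the edgeR fit, for all 7 libraries (circles) and without Mtm1-/y liver 2 (squares). The dashed lines mark a 2-fold change either way. With all libraries only the interval of Cyp7a1 crosses a dashed line, and only that of Slc10a1 leaves out 0.

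To compare the 10 genes with one another, CPM was divided by the length of their exons in kb. Over the 7 livers the order ran from Slc27a5 at 390 ± 49 and Slc10a1 at 388 ± 41 CPM per kb (SD, n = 7) through Slco1b2 at 251 ± 55, Cyp27a1 at 238 ± 48, Abcb11 at 195 ± 41, Cyp8b1 at 171 ± 34 and Baat at 149 ± 12 to Abcc2 at 50.4 ± 9.2, Abcb4 at 29.5 ± 4.9 and Cyp7a1 at 13.2 ± 6.7. The ranges of neighbours in this order overlapped except between Baat and Abcc2 and between Abcc2 and Abcb4. Slc27a5 stood above Slc10a1 in 4 of the 7 libraries. Cyp7a1, the first enzyme of the classic route, was the least abundant of the 10 genes per length, and Cyp8b1 lay above it in all 7 libraries.

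The genes with the most similar pattern over the 7 livers were sought by Pearson's r of log2 CPM among the 14304 other genes tested. For Cyp7a1 these were Zcchc10 (r = 0.973), Mxra8 (r = 0.967) and Arhgap44 (r = 0.965), for Cyp8b1 K230010J24Rik (r = 0.963), Acp1 (r = 0.958) and Zmat2 (r = 0.956), and for Abcb11 Fam149a (r = 0.982), Camk1d (r = 0.979) and Atxn3 (r = 0.976). The points of each r are the same 7 libraries, and with so many genes and so few libraries values of this size are a description of these libraries alone. None of the other 9 bile acid genes was among the 3 nearest to any of the 3.

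The rest of the pathway was read from 5 fixed lists. Over all 14305 genes tested in the liver 0 rose and 0 fell (edgeR). Counts of 0 in the lists below were thus fixed in advance and are no result about the lists. Of the 15 other enzymes of bile acid synthesis 14 were tested, 0 rose and 0 fell, and their median log2 fold change was 0.08 (-0.0029 without Mtm1-/y liver 2), beside a median of 0.01 over all genes tested. The 2 most abundant per exon length were Akr1c6, a hydroxysteroid dehydrogenase (1314 to 1602 CPM in WT and 1343 to 1605 CPM in Mtm1-/y livers), and Scp2, the peroxisomal sterol carrier protein and thiolase (1126 to 2097 and 1309 to 2068 CPM). Of the 15 other bile acid and bile lipid transporters 14 were tested, 0 rose and 0 fell, and the median was 0.03 (-0.05 without Mtm1-/y liver 2). Slco1a1, a sinusoidal uptake carrier, ranged over 547 to 746 CPM in WT and 572 to 783 CPM in Mtm1-/y livers, and Abcc3, a basolateral efflux pump, over 260 to 395 and 266 to 401 CPM.

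Of the 18 genes of cholesterol synthesis and uptake all were tested, 0 rose and 0 fell, and the median log2 fold change was 0.01. Among its most abundant members was the HDL receptor Scarb1 (log2 fold change -0.14 ± 0.13 SE). The 17 clock and clock output genes also gave 0 and 0, with a median of -0.08 and of -0.34 without Mtm1-/y liver 2. Nr1d1, a clock repressor, was at 66.7 to 102 CPM in WT and at 35.5 to 203 CPM in Mtm1-/y livers, the highest being Mtm1-/y liver 2, and Nfil3 at 35.3 to 57.4 and 28.8 to 50.7 CPM. The time of day at which each mouse was killed is not given in the sources used here, and the part of the clock in the spread of Cyp7a1 was not tested.

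The regulators of these genes include the bile acid receptor FXR (Nr1h4), its target SHP (Nr0b2), which represses Cyp7a1 and Cyp8b1, LRH-1 (Nr5a2) and HNF4-alpha (Hnf4a). Of 18 listed regulators 17 had a row in the table and 16 were tested, of which 0 rose and 0 fell, with a median log2 fold change of -0.0036. The most abundant were Hnf4a, at 669 to 883 CPM in WT and 713 to 954 CPM in Mtm1-/y livers, and the xenobiotic receptor Nr1i3 (CAR), at 316 to 569 and 294 to 851 CPM. Nr1h4 was at 126, 108 and 137 CPM in WT and at 113, 170, 111 and 127 CPM in Mtm1-/y livers, an overlapping range.

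Of the regulators, 3 had an unadjusted p under 0.05, and they are named here after their values were seen. Nr0b2 was at 57.2, 73.7 and 69.3 CPM in WT and at 26.7, 6.65, 45.4 and 27.1 CPM in Mtm1-/y livers. Every Mtm1-/y library lay below every WT library, which held for 3.47% of the genes tested. The log2 fold change was -1.33 ± 0.48 (SE), with a 95% interval of -2.43 to -0.24 and an adjusted p of 0.969 (edgeR). Without Mtm1-/y liver 2, where it was lowest, it was -1.01 ± 0.22, with an interval of -1.52 to -0.51 and an adjusted p of 0.605. Cyp7a1 and Cyp8b1, which SHP is known to repress, gave the overlapping values described above in the same libraries.

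Ppara, the fatty acid receptor, was at 74.3, 92.8 and 56.3 CPM in WT and at 54.6, 34.5, 14.9 and 51.9 CPM in Mtm1-/y livers, again with all Mtm1-/y libraries below (log2 fold change -0.93 ± 0.39 SE, edgeR adjusted p = 0.969). The log2 fold change of Ppara was -0.88 without Mtm1-/y liver 2, with an interval of -1.88 to 0.12 that takes in 0. Foxa2, a forkhead factor of hepatocytes, was at 10.3, 8.33 and 9.59 CPM in WT and at 10.7, 15.4, 17.9 and 14.8 CPM in Mtm1-/y livers, with all above (0.64 ± 0.18 SE, edgeR adjusted p = 0.969, DESeq2 adjusted p = 0.313). Without Mtm1-/y liver 2 Foxa2 was at 0.62, with an interval of 0.18 to 1.07 and an edgeR adjusted p of 0.910. Among the other synthesis enzymes, Cyp39a1, an oxysterol 7-alpha-hydroxylase likewise named after its values were seen, was at 40.1, 57.8 and 79.5 CPM in WT and at 117, 137, 79.7 and 62.3 CPM in Mtm1-/y livers (0.75 ± 0.31 SE, edgeR adjusted p = 0.969). It was 0.55 without Mtm1-/y liver 2, with an interval that took in 0. None of these passed the threshold, under edgeR or DESeq2.

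**Figure D3:**
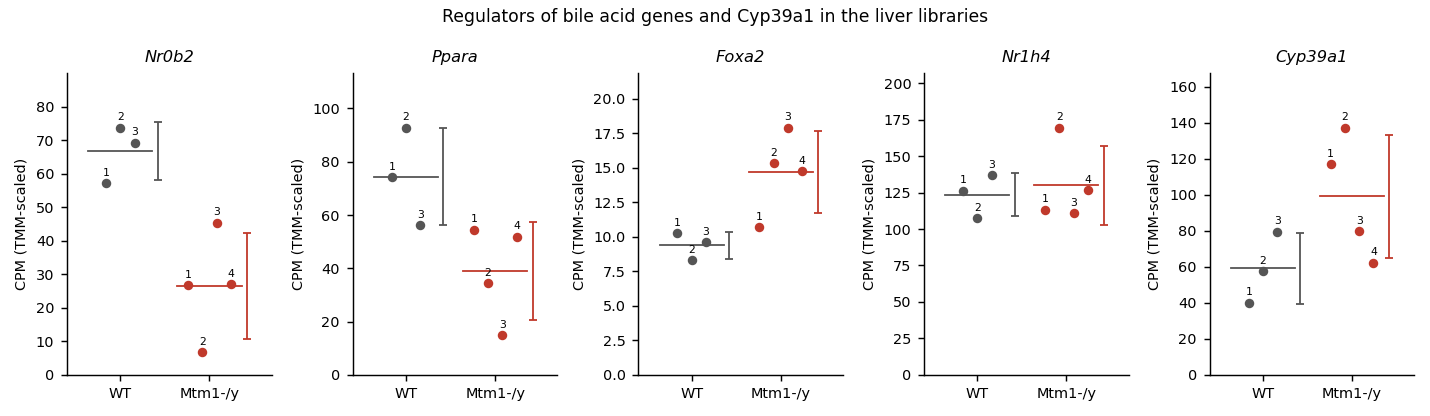
TMM-scaled CPM from 0 of Nr0b2, Ppara, Foxa2, Nr1h4 and Cyp39a1 in the liver libraries by genotype, with replicate numbers, group means (lines) and 1 SD (bars, n = 3 and 4). Nr0b2 and Ppara are lower in all 4 Mtm1-/y libraries and Foxa2 higher in all 4, Nr1h4 and Cyp39a1 overlap, and no gene of the 5 reached an adjusted p under 0.05.

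Markers of the cell types of the liver were read beside these values. Of the hepatocyte, pericentral, periportal, cholangiocyte, Kupffer cell, sinusoidal endothelial, stellate cell and striated muscle lists, 0 genes rose and 0 fell. That holds for all genes tested in the liver, so these counts are no result about the lists. The hepatocyte markers had a median log2 fold change of -0.03 over 15 genes, with Alb at 0.24 ± 0.14 and Apoa2 at -0.03 ± 0.14 (SE). The pericentral markers had a median of 0.07 (Cyp2e1 0.37 ± 0.24, Cyp1a2 0.03 ± 0.22), the periportal of 0.08 (Pck1 -0.44 ± 0.12, Cyp2f2 0.12 ± 0.24) and the 6 cholangiocyte markers tested of 0.25 (Spp1 0.39 ± 0.31). The periportal median turned to -0.08 without Mtm1-/y liver 2. The Kupffer markers had a median of -0.55, and -0.25 without Mtm1-/y liver 2 (Clec4f -0.58 ± 0.38, Cd5l -0.54 ± 0.41). They did not move together, with log2 fold changes from -0.74 to 1.71 over all libraries. Without Mtm1-/y liver 2, Marco was at 2.03, with an interval of 0.40 to 3.66 (edgeR adjusted p = 0.931). Adgre1 was at 0.01 there, and the other markers of the list were below 0.

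The sinusoidal endothelial markers had a median of -0.14 (Clec4g 0.03 ± 0.12, Oit3 -0.22 ± 0.24) and the stellate markers of -0.20 (Dcn -0.15 ± 0.20, Col3a1 0.20 ± 0.66). The sinusoidal median turned to 0.04, and Oit3 was at -0.02, without Mtm1-/y liver 2. The 11 striated muscle markers tested had a median of 0.98, and 0.26 without Mtm1-/y liver 2 (Acta1 1.09 ± 0.89, Tnnt3 0.84 ± 0.91, and -0.30 and -0.57 without that library). Of the others still tested without it, Ckm (-0.65) and Myh4 (-0.75) were below 0. Mb (2.11), Myh1 (1.21), Myl7 (0.80), Actc1 (0.55) and Tnnt2 (0.26) were above 0. With all libraries 5 of the 11 were higher at an unadjusted p under 0.05 (edgeR), beside 606 of all 14305 genes in either direction. The heart genes Myh6 and Myl2, which DESeq2 called, were at 1.42 to 1.99 and 0.62 to 2.28 CPM in Mtm1-/y livers 2, 3 and 4, and at most 0.13 CPM in the other 4 livers. Their part in the values of the bile acid genes was not tested.

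The other tissues show where the 10 genes are read outside the liver. In WT mice all 10 were called higher in the liver than in the heart and than in the diaphragm, and 9 of 10 than in the gastrocnemius, by edgeR over 17725 genes in 1 fit of the 15 WT libraries. The background was 25.7% of genes called higher in liver against gastrocnemius, 19.4% against diaphragm and 22.2% against heart. The exception was Abcb4, which was higher by 0.85 ± 0.15 on the log2 scale (SE, edgeR adjusted p = 0.00014), under the fold threshold. Cyp7a1 had no read in the 4 WT hearts, which with a floor of 3 reads over the group makes its level in WT liver at least 1866-fold higher.

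Abcb4 and Cyp27a1 had at least 435 reads in every library of every tissue, whereas those of the other 8 genes were at most 39 per library in the gastrocnemius and the heart. Alb, made by hepatocytes, had 9014 to 861957 reads in the 7 diaphragm libraries, 89 to 2192 in the gastrocnemius and 30 to 2828 in the heart. In WT diaphragm 1, 2 and 4 and Mtm1-/y diaphragm 2 Alb exceeded 10000 CPM, a level no other library outside the liver reached. Abcb11 had 9.63 to 10.9 reads per 1000 Alb reads in these 4 libraries and 10.6 to 13.9 in the other 3 diaphragms, against 6.28 to 13.8 in the livers. For Slc10a1 the same ratios were 6.81 to 9.25, 7.10 to 9.78 and 7.06 to 9.71.

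Abcb4 left this proportion. It had 1.87 to 3.53 reads per 1000 Alb reads in the livers, 41.6 to 261 in the 3 diaphragms with less Alb and 2475 to 9786 in WT gastrocnemius. At the median ratio of the liver, the Alb reads of the WT gastrocnemius would carry 0.0627% of the Abcb4 reads found there and 0.298% of the Cyp27a1 reads, but 60.9% of the Abcb11 reads and 57.0% of the Slc27a5 reads. For Slc27a5 the share was 33.9% in Mtm1-/y gastrocnemius and 18.9% in WT heart, and for Baat 31.9% in Mtm1-/y gastrocnemius. Per exon length, plain CPM of Abcb4 was 29.1 ± 4.6 (SD, n = 3) in WT liver, 15.6 ± 0.6 (n = 4) in gastrocnemius, 10.4 ± 1.7 (n = 4) in diaphragm and 1.99 ± 0.17 (n = 4) in heart. Cyp27a1 was at 268 ± 29, 30.4 ± 2.7, 59.5 ± 24.9 and 13.7 ± 1.6 CPM per kb in the same order. In WT diaphragm 1, 2 and 4 the Alb reads would, at the liver ratio, carry 84.6%, 69.2% and 65.6% of the Cyp27a1 reads. WT diaphragm 3, with less Alb, held 52.2 plain CPM of Cyp27a1 against 131.4 to 170.7 in those 3, and lay below the 59.1 to 73.1 plain CPM of the WT gastrocnemius.

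**Figure D4:**
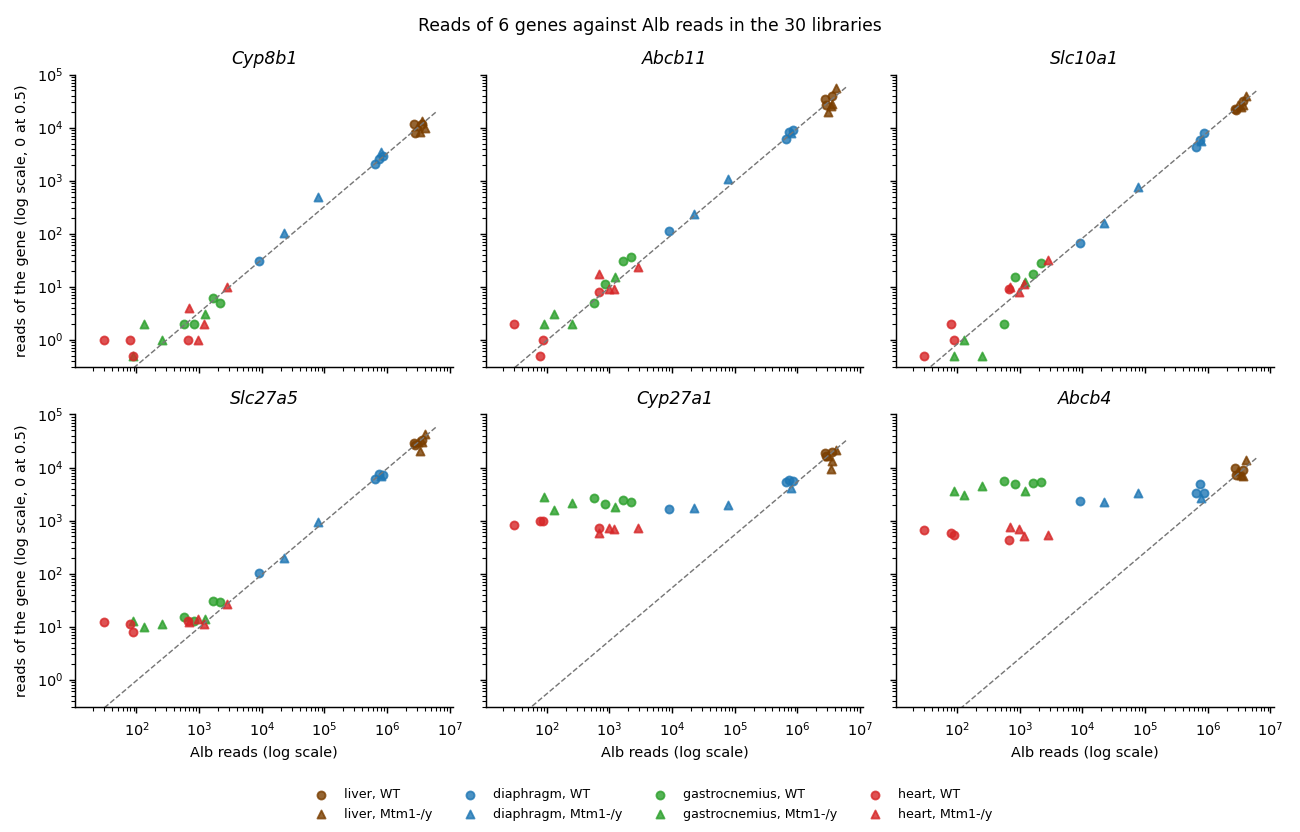
Reads of 6 bile acid genes (vertical axis, log scale, 0 drawn at 0.5) against Alb reads (horizontal axis, log scale) in the 30 libraries, coloured by tissue, with circles for WT and triangles for Mtm1-/y. The dashed line is the median ratio of the 7 livers. Cyp8b1, Abcb11 and Slc10a1 lie near the line in liver and diaphragm and scatter about it in gastrocnemius and heart, where their reads are few. Abcb11, for one, ran from 0 to 66.7 reads per 1000 Alb reads in WT hearts, against a liver median of 9.66. Slc27a5 levels off at about 10 reads, and Cyp27a1 and Abcb4 lie far above the line in gastrocnemius and heart.

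The stretch of 250 bases before the RefSeq start (build GRCm38.p6) is shown for Abcb4 and Cyp27a1, the pair read in all tissues, and for Abcb11, whose reads per Alb read in the diaphragm lay near those of the liver, because these promoters differ in CpG dinucleotides. Capitals mark each CG, which reads the same on both strands. The RefSeq table held an entry for 7 of the 10 genes.
Abcb4, chr5:8893471-8893720, plus strand: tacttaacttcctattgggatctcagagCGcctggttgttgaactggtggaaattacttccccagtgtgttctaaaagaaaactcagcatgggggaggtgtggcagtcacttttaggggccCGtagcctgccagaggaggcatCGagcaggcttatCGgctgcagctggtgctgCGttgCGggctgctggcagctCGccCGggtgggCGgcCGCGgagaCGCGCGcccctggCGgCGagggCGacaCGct
Cyp27a1, chr1:74713285-74713534, plus strand: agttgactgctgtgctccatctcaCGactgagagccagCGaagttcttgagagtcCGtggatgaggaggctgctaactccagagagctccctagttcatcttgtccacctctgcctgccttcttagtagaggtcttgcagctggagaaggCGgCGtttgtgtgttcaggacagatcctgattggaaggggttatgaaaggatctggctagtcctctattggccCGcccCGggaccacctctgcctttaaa
Abcb11, chr2:69342617-69342866, minus strand: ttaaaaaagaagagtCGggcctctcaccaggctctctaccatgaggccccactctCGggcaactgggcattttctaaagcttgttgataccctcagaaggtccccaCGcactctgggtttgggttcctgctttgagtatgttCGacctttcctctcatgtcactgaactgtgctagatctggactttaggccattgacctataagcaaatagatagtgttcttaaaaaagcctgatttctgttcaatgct
Abcb4 has 18 CG in this window, a number reached by 21.7% of 32851 RefSeq promoters, Cyp27a1 has 7 (46.3%) and Abcb11 has 4 (62.2%), and the median over all promoters is 6. Cyp8b1 has 4, Abcc2 has 1, Slco1b2 has 0, and the 2 starts listed for Slc10a1 have 1 and 6. The counts describe these windows, and no measurement of the promoters was made in the study.

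In annotation GENCODE M21 (mm10), Abcb4 (ENSMUSG00000042476) spans chr5:8893717-8959231 on the plus strand with 9383 bases of exon and overlaps the processed pseudogene Gm17936 on the same strand. Abcb11 (ENSMUSG00000027048) spans chr2:69238282-69342616 on the minus strand and overlaps Gm13614 and Gm13613 on the opposite strand. The counts cover the exons of each gene, and the strand setting of the counting is not given in the sources used here. No other of the 10 genes overlaps an annotated gene.

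Abcb4 was also the gene of the 10 with the clearest genotype difference, and it was found in the gastrocnemius. It was at 151, 178, 155 and 175 CPM in WT and at 109, 92.9, 100.2 and 97.5 CPM in Mtm1-/y gastrocnemius. Every Mtm1-/y library was below every WT library, as for 16% of the genes tested there. The log2 fold change was -0.72 ± 0.08 (SE, n = 4 and 4), with a 95% interval of -0.90 to -0.54 and an adjusted p of 0.00033 (edgeR), so that Abcb4 fell, though by less than the fold threshold of the study. In this tissue 14.9% of 15456 genes fell at an adjusted p under 0.05. The Abcb4 reads themselves numbered 4858 to 5529 in WT and 3072 to 4567 in Mtm1-/y libraries.

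**Figure D5:**
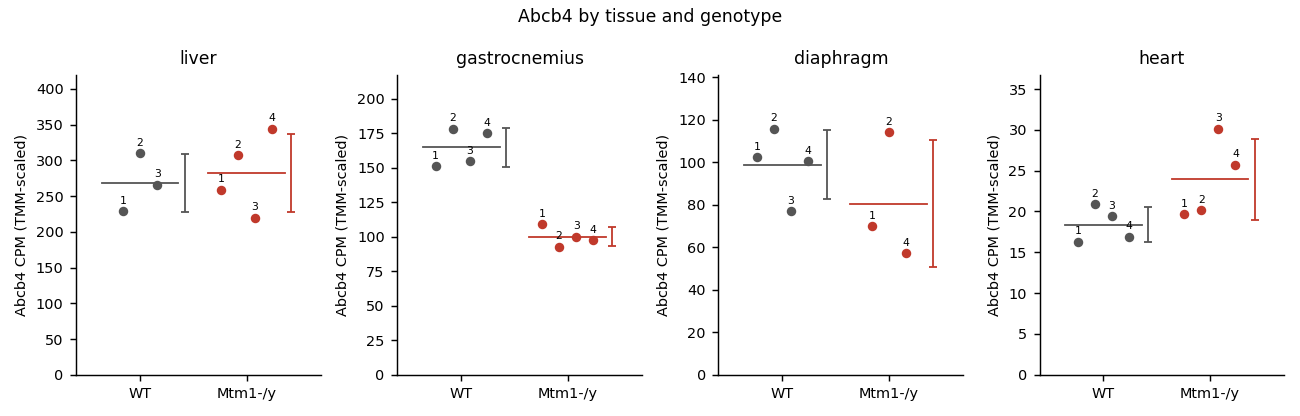
TMM-scaled CPM of Abcb4 from 0 in each tissue by genotype, with replicate numbers, group means (lines) and 1 SD (bars, n = 3 or 4). The axes differ between tissues because scaling was done within each. Only in the gastrocnemius panel do WT (151 to 178 CPM) and Mtm1-/y (92.9 to 109 CPM) not overlap.

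The genotype effect on Abcb4 in the liver (log2 0.07) minus that in the gastrocnemius was 0.82 ± 0.20 (SE), with an adjusted p of 0.0256 in 1 edgeR fit of both tissues, where 3.63% of genes had a higher effect in liver at that threshold. In the diaphragm Abcb4 was at 76.9 to 116 CPM in WT and 57.1 to 114 CPM in Mtm1-/y libraries, and in the heart at 16.3 to 20.9 and 19.7 to 30.1 CPM. Neither passed the test (edgeR adjusted p = 0.769 and 0.546).

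Of the other 9 genes, 5 were tested in the gastrocnemius, all at lower TMM-scaled levels in the Mtm1-/y group. Abcb11 and Slc10a1 (2 to 28 reads in WT, 0 to 12 in Mtm1-/y) passed the filter on low counts mainly through WT libraries, which favoured this direction. Cyp27a1 overlapped in plain CPM, at 59.1 to 73.1 in WT and 52.7 to 82.0 in Mtm1-/y libraries. The shared direction is thus no result about the 5 genes. Slc27a5 was called lower, as were 1.79% of genes. It had 29, 13, 31 and 15 reads in WT and 11, 10, 14 and 13 reads in Mtm1-/y libraries, or 0.48 to 0.93 against 0.26 to 0.39 CPM. The log2 fold change was -1.05 ± 0.30 (SE, adjusted p = 0.0265), and the call was lost when either WT gastrocnemius 1 or 3 or Mtm1-/y gastrocnemius 1, 2 or 4 was left out (adjusted p from 0.0516 to 0.0758), with no filter on low counts (0.0723), and in a fit of all 30 libraries (0.508). The Alb reads of the same libraries were 2192, 837, 1638 and 565 in WT and 251, 131, 1230 and 89 in Mtm1-/y, and their part in this call was not tested.

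Abcb11 in the gastrocnemius had 36, 11, 31 and 5 reads in WT and 2, 3, 15 and 2 in Mtm1-/y libraries, a log2 fold change of -2.05 ± 0.73 (SE) with an adjusted p of 0.0602 by edgeR and 0.0433 by DESeq2. Mtm1-/y gastrocnemius 3, with the most Alb of its group, also had the most Abcb11. Slc10a1 (-2.38 ± 0.97), Slco1b2 (-1.72 ± 0.75) and Cyp27a1 (-0.40 ± 0.14) did not pass the test (adjusted p = 0.093, 0.110 and 0.0604). Alb itself was at -1.77 ± 0.75 on the log2 scale (adjusted p = 0.102, not past the threshold), and 3 of the 15 hepatocyte markers fell in this tissue. The effect on Slc27a5 in liver minus that in gastrocnemius was 1.14 ± 0.32 (adjusted p = 0.0476), the only one of the 10 called in that contrast, where 0.716% of genes were called higher.

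In the diaphragm all 10 genes were tested and 0 were called, against 0.0119% of 16796 genes. edgeR gave 0 of the 10 an unadjusted p under 0.05, and DESeq2 called 0. Without the 4 libraries with Alb above 10000 CPM, an alternative chosen after seeing the data that leaves 1 WT and 2 Mtm1-/y diaphragms with the spread of the lone WT library assumed to be that of the others, 0 were called as well. The direction turned, however, for 7 genes, Cyp8b1, Abcb11, Abcc2, Slc10a1, Slco1b2, Baat and Slc27a5, whose log2 fold changes were -0.73 to -0.0062 with all libraries and above 0, up to 2.69, without the 4. That of Cyp7a1 went from 0.85 to 4.06, where the lone WT library held 2 of its reads and the Mtm1-/y libraries 61 and 38. Alb was at 284 plain CPM in that WT library and at 1816 and 583 in the Mtm1-/y libraries, and its part was not tested. In the same setting the 10 genes stayed called higher in WT liver than in the 1 remaining WT diaphragm, with log2 fold changes of 2.32 for Abcb4, 3.92 for Cyp27a1 and 8.06 to 9.90 for the other 8, where with all 4 WT diaphragms they had been 1.96 to 3.21. In the heart 4 of the 10 genes passed the filter on low counts, namely Cyp27a1, Abcb4, Slco1b2 and Slc27a5, and 0 were called, against 0.00656% of 15238 genes (2 of the 4 had an unadjusted p under 0.05, and DESeq2 called 0). Slco1b2 was at 0 to 0.68 CPM in WT and 0.60 to 1.16 CPM in Mtm1-/y hearts, a log2 difference of 2.11 ± 0.86 (SE), with an edgeR adjusted p of 0.546. Its reads were 0 to 18 in the WT and 15 to 32 in the Mtm1-/y hearts. It thus passed the filter through the Mtm1-/y libraries, which favoured a higher level there, and its direction is no result. Alb was at 0.94 to 25.9 plain CPM in the same WT hearts and at 27.5 to 99.99 in the Mtm1-/y hearts.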

How the data were processed

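RNA-seq counts of 30 libraries were used, grouped by the tissue and genotype in the labels. The deposited values are raw read counts per gene, made by the authors from polyA RNA (TruSeq Stranded mRNA, single reads). Per the labels and the study's methods, reads were demultiplexed with bcl2fastq 2.17.1.14, trimmed with cutadapt 1.10, aligned to mm10 with STAR 2.5.3a and counted with HTSeq 0.6.1p1 on Ensembl. Coordinates and exon lengths came from GENCODE M21, which matched all 36103 identifiers.

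The genotypes were compared tissue by tissue in R 4.3.3 with the quasi-likelihood test of edgeR 4.0.16, after filterByExpr at a count minimum of 10 and TMM scaling, and p-values were adjusted by Benjamini-Hochberg across the tested genes. Calls required an adjusted p below 0.05 and a log2 fold change beyond 1 in either direction. "Rose" and "fell" use the adjusted p alone. WT tissues were compared in 1 fit of 15 libraries, and genotype effects of 2 tissues as a contrast. Intervals are at 95%, and the step was tested on simulated data. P-values set a difference between groups against the estimated spread between these libraries. Reads carry no molecular identifiers, so floors (3 reads) cover counting error only. Alternatives were DESeq2 1.42.0, limma 3.58.1 (voom with sample weights), DESeq2 size factors, no filter, all 30 libraries, a replicate block, and each library left out.

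The 10 genes and all lists were chosen with earlier results of these data known. Named genes are the 10, Mtm1, Alb, per list up to 4 genes that passed or else the 2 most abundant per exon length, and the 3 nearest in pattern to Cyp7a1, Cyp8b1 and Abcb11. Dbp, Nr1h4, Nr0b2, Ppara, Foxa2, Cyp39a1, Myh6 and Myl2 fall outside this rule and were chosen after their values were seen. The same holds for the Kupffer markers Marco and Adgre1 and for the muscle markers Ckm, Myh4, Mb, Myh1, Myl7, Actc1 and Tnnt2. Some genes that the rule names are not reported here.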

Additional observations from a re-analysis of the deposited data

Results flagged for a closer look

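In 60 sets of 4 libraries (10 genes in 6 groups), 6 values stood apart from the other 3 of their group by Dixon's 95% criterion. Chance alone gives about 1 in 20, but some of the 6 values share a library and are not independent. All are at very low CPM outside the liver, and that rate assumes values with a normal spread, which counts this low do not have. They are Abcb11 at 0.42 CPM and Slc10a1 at 0.33 CPM in Mtm1-/y gastrocnemius 3, Slc10a1 at 1.16 CPM and Slc27a5 at 0.98 CPM in Mtm1-/y heart 1, Slco1b2 at 0.68 CPM in WT heart 1, and Cyp8b1 at 0 CPM in WT heart 4 (0 reads, against 1 read in each of the other 3 WT hearts). Apart from the last, each is from the library with the most Alb reads of its group (1230 in Mtm1-/y gastrocnemius 3, 2828 in Mtm1-/y heart 1 and 670 in WT heart 1). The part of this RNA in the values was not tested.

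The genotype effect in liver minus that in gastrocnemius differed for 2 of the 10 genes at an adjusted p under 0.05 (edgeR), by 0.82 on the log2 scale for Abcb4 and by 1.14 for Slc27a5.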

How the results depend on the processing

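No alternative brought any of the 10 genes past the thresholds in the liver (14 alternatives), the diaphragm or the heart, and the counts of genes called higher in WT liver kept within 9 or 10. The gastrocnemius count of 1 became 0 with no filter and with all 30 libraries, and 2 with DESeq2, voom, the replicate block and the adjusted p alone. It ran from 0 to 3 as single libraries were left out, with 0 without WT gastrocnemius 1 or 3 or Mtm1-/y gastrocnemius 1, 2 or 4, 2 without WT gastrocnemius 4 and 3 without Mtm1-/y gastrocnemius 3. The count of 1 in the liver minus gastrocnemius contrast became 0 with DESeq2 size factors, no filter and the replicate block, and 2 with DESeq2 and the adjusted p alone, and ran from 0 to 2 with single libraries left out. The causes of these changes were not tested. Abcb4 in the gastrocnemius fell under all 14 alternatives, by 0.68 to 0.77 on the log2 scale, with adjusted p from 2.33e-13 to 0.0071. All of these scaled the libraries by TMM or DESeq2 size factors. The range therefore leaves out the smaller difference seen in plain CPM (141 to 152 in WT and 104 to 122 in Mtm1-/y gastrocnemius).

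Several liver log2 fold changes reversed sign, none of which had passed the test. Cyp8b1 was -0.018 and Abcb4 -0.016 with voom, and Abcb4 -0.037 with the replicate block. Baat was 0.0022 with DESeq2 size factors, 0.0024 with no filter, 0.0062 with DESeq2 and 0.0073 with all 30 libraries. With single livers left out, the ranges were -0.052 to 0.66 for Cyp7a1, -0.056 to 0.22 for Cyp8b1, -0.31 to 0.021 for Abcb11, -0.028 to 0.19 for Abcb4, -0.23 to 0.041 for Abcc2, -0.071 to 0.049 for Baat and -0.020 to 0.15 for Slc27a5.

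Replicate numbers are shared between groups. Same-numbered WT and Mtm1-/y livers had deviations that correlated at r = 0.423, -0.014 and 0.235, against -0.320 to 0.333 for unlike numbers. These few livers cannot decide whether the numbers mark pairs. In the gastrocnemius same numbers gave -0.014 to 0.104, against -0.269 to 0.240 for unlike numbers. The numbers were not taken as pairs, and the replicate block was among the alternatives. Depth limits the 8 genes other than Abcb4 and Cyp27a1 in the gastrocnemius and the heart, and in the liver the interval of Cyp7a1 was the widest of the 10.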
